A study of Capra hircus with 29 samples.

Results

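The genes described here are 10 components of the PIWI-interacting RNA (piRNA) pathway, chosen by symbol: the PIWI genes PIWIL1, PIWIL2, PIWIL3 and PIWIL4, and the piRNA factors MAEL, DDX4, TDRKH, TDRD1, TDRD9 and MOV10L1. Each had exactly 1 row among the 21343 genes of the oocyte expression table. The table holds oocytes of the Ji'ning grey goat (Capra hircus) from 29 samples in 6 groups, crossing litter size with follicle size. High fertility (more than 3 kids per birth in the labels) gave HLO, HMO and HSO, from large (over 7 mm), medium (3 to 7 mm) and small (under 3 mm) follicles. Low fertility (fewer than 2 kids per birth in the labels) gave LLO, LMO and LSO. The methods of the study give other limits, 3 or more per litter for high and 2 or fewer for low fertility. There were 5 samples in every group except HSO, which had 4, numbered 1, 3, 4 and 5 in the labels. Each sample was a pool of 2 to 3 oocytes. No group carried a treatment or allele, and ages were not in the labels. Oocytes of 1 follicle size were pooled over the goats of a group before they were divided into samples, which the methods state for high fertility, so the samples of a group are parts of a pool and not separate animals. The p-values below therefore measure the spread between such parts and not between goats.

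In animal germ cells, PIWI proteins bind small RNAs called piRNAs and use them to find and silence transposon transcripts, both by cutting the RNA in the cytoplasm and by marking the locus in the nucleus. Helicases such as MOV10L1 and DDX4 hand RNA to the PIWI proteins, Tudor-domain proteins hold the machinery together in germ granules next to mitochondria, and nucleases and trimmers shape the piRNA ends. Mice lack Piwil3 and female mice tolerate loss of the pathway, whereas oocytes of several other mammals express PIWIL3 and carry oocyte piRNAs.

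MAEL (ENSCHIG00000025356), which encodes an HMG-box protein of germ granules needed for transposon silencing, stood far above the other members. Values are FPKM, sequenced fragments corrected for transcript length and for the mapped reads of the sample, a relative level that allows genes to be set side by side. MAEL averaged 328 ± 138 FPKM (SD, n = 29), higher than 98.9% of all genes by mean, and it was the highest member in 29 of 29 samples. PIWIL1 came next at 4.12 ± 1.71 FPKM, followed by DDX4 at 3.22 ± 2.55, TDRD1 at 3.13 ± 1.44, TDRKH at 2.64 ± 3.03, PIWIL3 at 1.61 ± 0.788 and PIWIL2 at 1.33 ± 0.721 FPKM. TDRD9, MOV10L1 and PIWIL4 were close to the floor at 0.167, 0.0566 and 0.0397 FPKM.

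This order was taken from the same 29 samples that were then tested, so the tests describe it and give it no separate support. They also count parts of a pool as separate samples. In 6 of the 9 steps of this order the mean difference passed a test. In 3 of those 6 it was smaller than the SD of the differences between samples. Each of the 9 neighbouring pairs was compared within samples on log2(FPKM + 1) by a two-sided sign-flip permutation test, with p-values adjusted over the 9. DDX4 and TDRD1 were not told apart (adjusted p = 0.669), nor were TDRKH and PIWIL3 (adjusted p = 0.115) or MOV10L1 and PIWIL4 (adjusted p = 0.233). For DDX4 and TDRD1 the mean log2 difference was -0.045, against the order of the mean FPKM. DDX4 was the higher of these genes in 12 of 29 samples. PIWIL1 exceeded DDX4 in 24 of 29 samples, by 0.37 ± 0.63 on the log2 scale (SD, adjusted p = 0.00461). TDRD1 exceeded TDRKH in 24 of 29 by 0.40 ± 0.62 (adjusted p = 0.00356), and PIWIL3 exceeded PIWIL2 in 21 of 29 by 0.16 ± 0.38 (adjusted p = 0.0445). The steps from MAEL to PIWIL1, from PIWIL2 to TDRD9 and from TDRD9 to MOV10L1 each had an adjusted p of 3e-05, from the smallest p that the 100000 resamples can give.

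**Figure D1:**
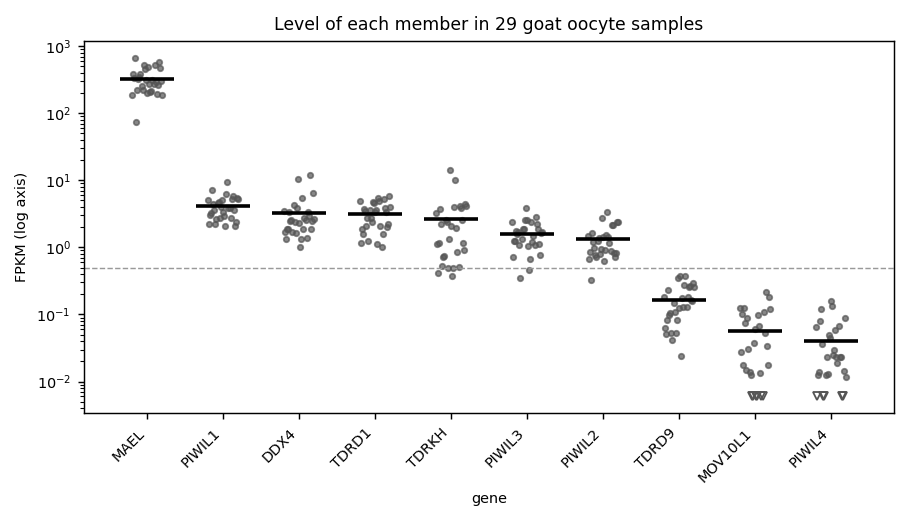
FPKM (log axis) of the 10 members, ordered by mean; each point is 1 of the 29 samples, the black bar is the mean, the dashed line marks 0.5 FPKM, and open triangles are samples listed at 0, drawn below the axis values. MAEL lies between 74.0 and 673 FPKM, clear of every other member, and TDRD9, MOV10L1 and PIWIL4 lie wholly under the dashed line.

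Of the 10 members, 7 passed the filter for testing, which required more than 0.5 FPKM in at least 4 samples, as did 9692 genes in all. The other 3 are described by level alone. PIWIL4 (ENSCHIG00000007777), the nuclear PIWI protein known from the DNA methylation of transposons in fetal male germ cells, reached at most 0.160 FPKM and was listed at 0 in 5 samples. MOV10L1 (ENSCHIG00000018369), the helicase that binds piRNA precursors, reached at most 0.215 FPKM and was listed at 0 in 6 samples. TDRD9 (ENSCHIG00000011541), a helicase with a Tudor domain that acts in transposon silencing, was above 0 in every sample and reached at most 0.380 FPKM. A listed 0 can be a failed estimate, and the read depth behind these values is not known from the table, so they do not show that the transcripts were absent.

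Among the PIWI genes, PIWIL1 was the highest in 29 of 29 samples. PIWIL1 (ENSCHIG00000008831) is best known from the pachytene stage of spermatogenesis, and it ranged here from 2.06 to 9.41 FPKM. It averaged 4.17 ± 2.02 in HLO, 4.82 ± 3.01 in LLO, 3.51 ± 1.05 in HMO, 4.31 ± 1.21 in LMO, 4.15 ± 1.04 in HSO and 3.77 ± 1.59 in LSO. The ranges of all 6 groups overlapped.

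PIWIL2 (ENSCHIG00000022958), which takes part in the cycle of reciprocal cutting that amplifies piRNAs, averaged 0.994 ± 0.554 FPKM in HLO, 1.58 ± 1.07 in LLO, 0.978 ± 0.237 in HMO, 1.57 ± 0.574 in LMO, 1.46 ± 0.873 in HSO and 1.43 ± 0.869 in LSO. PIWIL3 (ENSCHIG00000024941), the PIWI gene that mice lack, averaged 1.46 ± 0.615 FPKM in HLO, 1.43 ± 0.989 in LLO, 1.20 ± 0.527 in HMO, 1.76 ± 0.741 in LMO, 2.57 ± 0.953 in HSO and 1.42 ± 0.465 in LSO. Group means of PIWIL4 lay between 0.0231 in LSO and 0.0812 in LLO. The samples of PIWIL2 overlapped between all groups. For PIWIL3 the HSO samples, from 1.88 FPKM upward, lay above the HMO samples, of which the highest was 1.67, and overlapped every other group. PIWIL3 was the 1 of 7 tested members whose HSO and HMO samples did not overlap, against 2.17% of all genes for that pair. This pair was picked from all pairs of groups after the values were seen. It was not tested on its own, so the count gives no support for a difference. HSO also lacks a sample of the labels' number 2, in which PIWIL3 ran from 0.724 to 1.67 FPKM in the other groups.

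The share of each gene in the summed PIWI FPKM of a sample does not depend on how the sample was scaled. PIWIL1 made up 58.4% ± 6.70 of that sum (SD, n = 29, 43.2% to 73.8%), PIWIL3 22.7% ± 7.03 and PIWIL2 18.3% ± 4.22. PIWIL4 made up 0.561% on average and 2.76% at most. The PIWIL3 share was 31.4% ± 5.39 in HSO, with a range of 23.4% to 34.8%, and 22.6% ± 6.39 in LSO, with a range of 16.8% to 30.3%. The 2 groups overlapped in this share, and their difference was not tested.

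**Figure D2:**
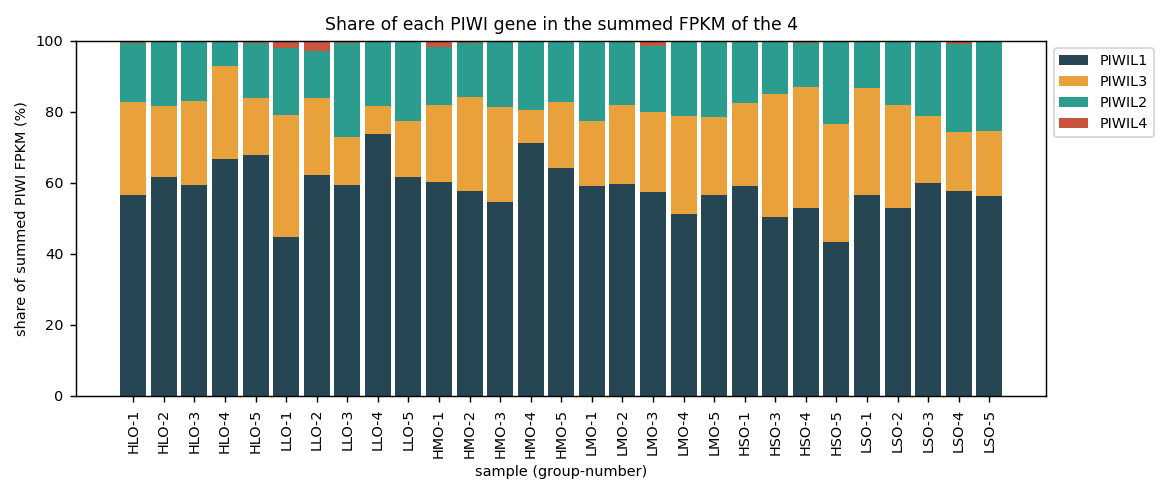
Stacked bars of the share (%) of PIWIL1, PIWIL3, PIWIL2 and PIWIL4 in the summed FPKM of the 4 PIWI genes, 1 bar per sample, named by group and sample number. PIWIL1 is the largest block in all 29 bars, from 43.2% to 73.8%, and PIWIL4 is at most 2.76%.

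DDX4 (ENSCHIG00000015567), the germ cell helicase also called VASA, averaged 2.04 ± 0.808 FPKM in HLO, 2.39 ± 1.75 in LLO, 2.89 ± 0.980 in HMO, 2.59 ± 0.739 in LMO, 4.60 ± 4.06 in HSO and 5.09 ± 4.27 in LSO. The higher means in small follicles rested on few samples. The HSO values were 2.42, 1.61, 3.82 and 10.5, and the LSO values were 12.0, 1.88, 2.44, 6.54 and 2.64, so the medians were 3.12 and 2.64. All other groups stayed at or below 5.40 FPKM.

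The tested Tudor genes, TDRD1 and TDRKH, differed in how widely their samples spread. TDRD1 (ENSCHIG00000012766), a scaffold that binds methylated arginines of PIWI proteins, averaged from 2.63 ± 1.58 FPKM in HLO to 3.69 ± 1.68 in LLO, with 2.67 ± 1.01 in HMO, 2.76 ± 1.75 in LMO, 3.65 ± 1.23 in HSO and 3.50 ± 1.54 in LSO. TDRKH (ENSCHIG00000025326), the mitochondrial Tudor protein that brings PIWI proteins to the trimming enzyme, averaged 1.93 ± 1.46 in HLO, 3.39 ± 3.96 in LLO, 1.35 ± 0.946 in HMO, 2.26 ± 1.66 in LMO, 4.68 ± 6.58 in HSO and 2.63 ± 1.63 in LSO. In LLO and HSO the SD of TDRKH exceeded the mean, since single samples reached 9.94 and 14.5 FPKM.

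MAEL was 186, 388, 335, 673 and 74.0 FPKM in the HLO samples and 199, 487, 277, 209 and 211 in the LLO samples. In medium follicles it was 224, 327, 343, 381 and 252 in HMO and 315, 274, 521, 292 and 194 in LMO. In small follicles it was 223, 521, 461 and 316 in HSO and 265, 579, 476, 304 and 190 in LSO. High and low fertility overlapped at each follicle size, and HLO alone held both the highest and the lowest of the 29 values. TDRD9 and MOV10L1 group means lay between 0.0902 in HMO and 0.244 in LMO, and between 0.0126 in HSO and 0.114 in LSO, respectively.

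**Figure D3:**
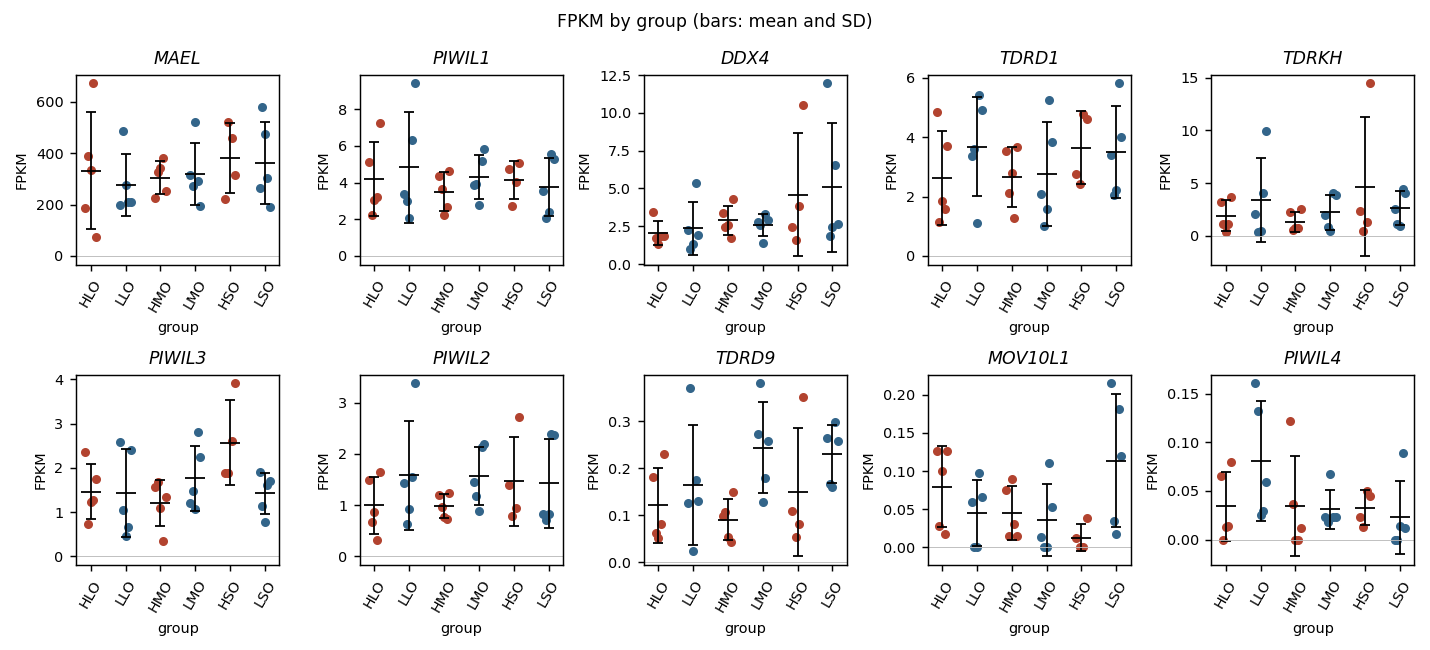
FPKM of each member by group, 1 panel per gene with its own linear axis; red points are high fertility samples, blue points low fertility samples, and the black bars give mean and SD (n = 5, HSO n = 4). In every panel the high and low fertility samples of the same follicle size overlap; for PIWIL3 in small follicles the overlap is narrow, with 1.88 as the lowest HSO value and 1.90 as the highest LSO value.

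In the main fits, no member was called different between high and low fertility. The comparison asks which oocyte transcripts go with litter size, and it was run with limma on log2(FPKM + 1) with Benjamini-Hochberg adjustment over all genes tested. At an adjusted p under 0.05, 0 of 7 members were called in large, in medium and in small follicles, where 0%, 0.0715% and 0.0119% of all genes were called. At an unadjusted p under 0.05 the count was also 0 of 7 at each size (1 without LMO sample 3 in medium and 1 without LSO sample 1 in small follicles), against 4.14%, 8.67% and 4.41% of all genes, and an exact Wilcoxon test called 0 of 7 at each size as well, against 2.47%, 6% and 4.12%. Fitted over all 29 samples with follicle size as a covariate, 0 of 7 were called at either threshold, against 0.0103% of all genes adjusted and 9.99% unadjusted. Array weights, an alternative given in the last section, changed this at an adjusted p under 0.05. They called PIWIL2 and TDRKH in medium follicles and PIWIL2 over all stages, against 12.1% and 7.13% of all genes.

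On log2(FPKM + 1) the fitted differences were small, but their intervals were wide. This scale understates changes of low genes, and most members are low. For these a value of 1 on it stands for a larger log2 change of FPKM itself. Log2 differences, high minus low fertility, ran from -0.38 to 0.08 in large follicles, from -0.40 to 0.11 in medium, from -0.12 to 0.55 in small, and from -0.23 to 0.08 over all stages. Their medians were -0.11, -0.24, 0.11 and -0.07, beside -0.09, -0.07, -0.01 and -0.04 over all genes tested. The 95% intervals included a log2 change beyond 1 in either direction for 5 of 7 members in large follicles, 1 of 7 in medium, 3 of 7 in small and 0 of 7 over all stages, where they lay between -0.85 and 0.55. The signs moved with scaling. Over all stages 2 of 7 members were above 0 as deposited (42.8% of all genes were) and 4 of 7 after median-of-ratios scaling.

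The smallest p of the 3 comparisons by follicle size belonged to PIWIL3 in small follicles, a gene singled out here after its values were seen. PIWIL3 was 1.88, 1.89, 2.60 and 3.91 FPKM in HSO and 1.90, 1.13, 0.764, 1.61 and 1.71 in LSO. The difference was 0.55 on the log2 scale (SE 0.257, 95% interval -0.02 to 1.11, limma unadjusted p = 0.0575, adjusted p = 0.880). It had the opposite sign in medium follicles, where the log2 difference was -0.33.

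Follicle size and its interaction with fertility gave no call either. In the limma F-test over the 3 follicle sizes, 0 of 7 members passed at an adjusted or an unadjusted p under 0.05, against 0% and 1.66% of all genes. DDX4 came nearest with an unadjusted p of 0.0524, and the unadjusted count was 1 in 8 of the 29 fits with a sample left out. In the interaction test the count was again 0 of 7 at both thresholds, against 0% and 7.89% of all genes, and the lowest adjusted p was 0.728. In simulation the interaction test recovered only 33.5% of the changed genes, so its lack of calls says little. These F-tests measure differences between means, and fewer cells, less RNA per cell or a changed total cannot be told apart in FPKM.

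The members did differ with the sample number, 1 to 5, that the labels give within each group. What a shared number stands for is not given in the labels. With the 6 groups as covariates, the limma F-test over the numbers called 5 of 7 members at an adjusted p under 0.05, which is close to the background, since 50.5% of all genes were called. At an unadjusted p under 0.05 it was the same 5, against 58%. The called members were TDRKH (adjusted p = 9.24e-05), PIWIL1 (0.00228), PIWIL2 (0.00544), MAEL (0.0118) and TDRD1 (0.0310). TDRD1 lost its call in 9 of the 29 fits with 1 sample left out (adjusted p up to 0.0581). PIWIL3 and DDX4 had adjusted p-values of 0.0868 and 0.0979.

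TDRKH differed most between numbers, by 2.02 on the mean log2(FPKM + 1) scale between numbers 5 and 3. It had a low of 1.95, a median of 2.32 and a high of 3.27 FPKM in number 1, and 2.52, 3.99 and 14.5 in number 5. In number 2 the 5 values ran from 0.372 to 1.15 with a median of 0.855, and in number 3 from 0.412 to 0.911 with a median of 0.507. All 12 samples of numbers 1 and 5 thus lay above all 11 samples of numbers 2 and 3, a grouping made after the values were seen. TDRKH was the only one of 7 tested members without overlap in FPKM, against 5.22% of all genes. Number 4 was also singled out after the values were seen. In number 4 the high and low fertility samples did not overlap for 5 of 7 tested members (PIWIL1, PIWIL2, MAEL, TDRKH and TDRD1), against 39% of all genes. TDRKH lay there between 0.732 and 1.34 in the 3 high fertility samples and between 4.06 and 4.47 in the 3 low fertility samples.

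MAEL ran the other way. Its median was 224 FPKM in number 1 (186 to 315) and 203 in number 5 (74.0 to 316), and 388 in number 2 (274 to 579) and 410 in number 3 (277 to 521). In number 4 it was 381 to 673 in high fertility samples and 209 to 304 in low fertility samples. The ratio of MAEL to the summed PIWI FPKM, which scaling leaves as it is, had a median of 29.3 in number 1, 102 in number 2, 89.7 in number 3, 46.0 in number 4 and 19.6 in number 5, and it ranged over all samples from 6.89 to 148.

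PIWIL1, PIWIL2 and TDRD1 were called for the number in FPKM but not after rescaling. PIWIL1 had a median of 4.91 FPKM in numbers 1 and 5 and 2.74 in numbers 2 and 3, and PIWIL2 had 1.47 and 0.834. When each sample was divided by its median-of-ratios factor, the medians were 3.79 and 3.55 for PIWIL1 and 1.27 and 1.03 for PIWIL2. The F-test then called 2 of 7 members, TDRKH (adjusted p = 0.000626) and MAEL (adjusted p = 0.00177), against 45.5% of all genes. The same 2 genes were called after quantile normalization (adjusted p = 0.000555 and 0.00372), against 45.1%. PIWIL1, PIWIL2 and TDRD1 had adjusted p-values of 0.221, 0.0951 and 0.635 after median-of-ratios scaling. On that scale MAEL did not overlap either, with 58.1 to 295 in numbers 1 and 5 and 311 to 730 in numbers 2 and 3, and 2 of 7 members were apart against 1.8% of all genes.

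Other properties of the samples moved with the same numbers. The count of genes above 0.5 FPKM had a median of 8268.5 in number 1 and 8279 in number 5, and of 7421 in number 2 and 7239 in number 3. In number 4 it was 7251 to 7980 in high fertility and 8318 to 8689 in low fertility samples. The summed FPKM of 13 oocyte markers was 4116 to 5264 in number 1, 3950 to 11046 in number 5, 1707 to 2857 in number 2 and 1484 to 2135 in number 3. The part of gene detection or of marker level in the differences of TDRKH and MAEL was not tested. The granulosa marker sum had medians of 25.0, 23.6, 24.2, 27.7 and 39.6 FPKM in numbers 1 to 5.

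**Figure D4:**
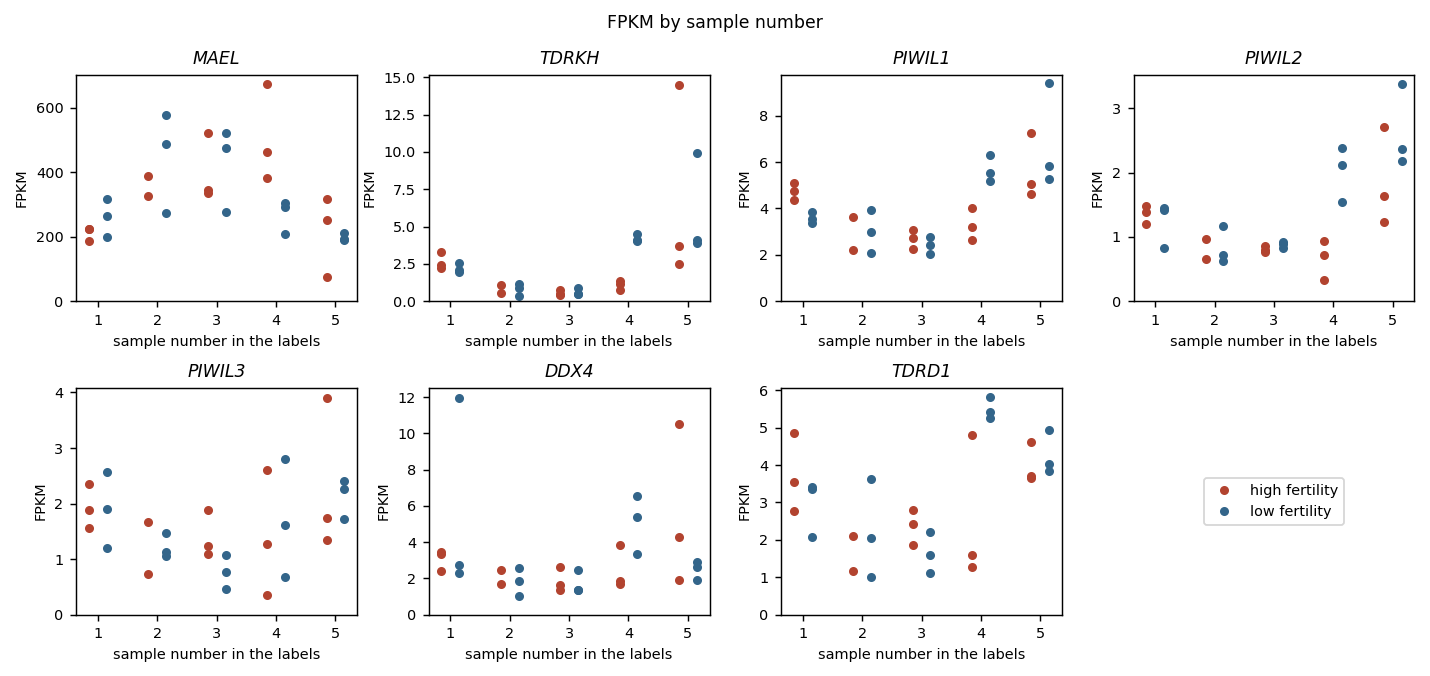
FPKM of the 7 tested members by sample number (1 to 5), 1 panel per gene with a linear axis from 0; each point is 1 sample, red for high and blue for low fertility. TDRKH lies at 1.95 or above in numbers 1 and 5 and at 1.15 or below in numbers 2 and 3, MAEL shows higher medians in numbers 2 and 3, and in number 4 the high and low fertility samples of PIWIL1, PIWIL2, MAEL, TDRKH and TDRD1 do not overlap.

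The oocyte identity of the samples rests on markers of several classes. The oocyte marker sum was 1484 to 11046 FPKM over the 29 samples, carried by ZP3, BTG4, ZP4, GDF9, ZP2 and BMP15, while NLRP5 averaged 0.303 FPKM, NOBOX 0.379 and OOSP2 was listed at 0 in 28 samples. The 16 granulosa markers with a row summed to 8.55 to 62.8 FPKM. Of these, STAR averaged 18.8, KITLG 4.71 and HAS2 1.45, each above 0.5 FPKM in all 29 samples. GJA1 was above 0.5 FPKM in 19 samples, and TNFAIP6 reached at most 18.2 FPKM with a median of 0.145. AMH and AMHR2 were listed at 0 in every sample, and FSHR and LHCGR averaged 0.0403 and 0.00211. The 10 leukocyte markers summed to 0.0640 to 5.13 FPKM. The 10 testis and male germ cell markers summed to 46.3 to 488 FPKM, nearly all of it SYCP3, a meiotic chromosome gene that oocytes also express, and PRM2, TNP1 and TNP2 were listed at 0 in every sample. Total FPKM per sample was 222697 to 490048, lowest in LMO sample 2.

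Over the 29 samples the tested members other than MAEL varied together in FPKM. For the 15 pairs without MAEL, Spearman's rho ran from 0.472 to 0.867, and for the 6 pairs with MAEL from -0.748 to -0.403. PIWIL1 and PIWIL2 had a rho of 0.867 and a Pearson r of 0.828 on log2(FPKM + 1), which was 0.796 without the 2 samples farthest from the PIWIL1 median. Within the 5 sample numbers, rho of this pair ran from 0.0286 to 0.771. These are descriptions, since the samples share their numbers and their scaling.

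Rescaling lowered most of these values. After median-of-ratios scaling the 15 pairs without MAEL ran from -0.25 to 0.527, of which 12 were above 0 and 3 below. PIWIL1 and PIWIL2 were then at 0.377, PIWIL2 and TDRKH at 0.527 (0.417 after quantile normalization) and TDRKH and TDRD1 at 0.388 (0.412). The 6 pairs with MAEL ran from -0.744 to -0.0192 after median-of-ratios scaling. After quantile normalization they ran from -0.690 to 0.0902, with 3 above 0 and 3 below. Among them, the pair of MAEL and TDRKH was at -0.638 in FPKM, -0.744 after median-of-ratios scaling and -0.690 after quantile normalization. Within single numbers that pair ran from -0.600 to 0.429, with 3 of 5 numbers above 0.

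**Figure D5:**
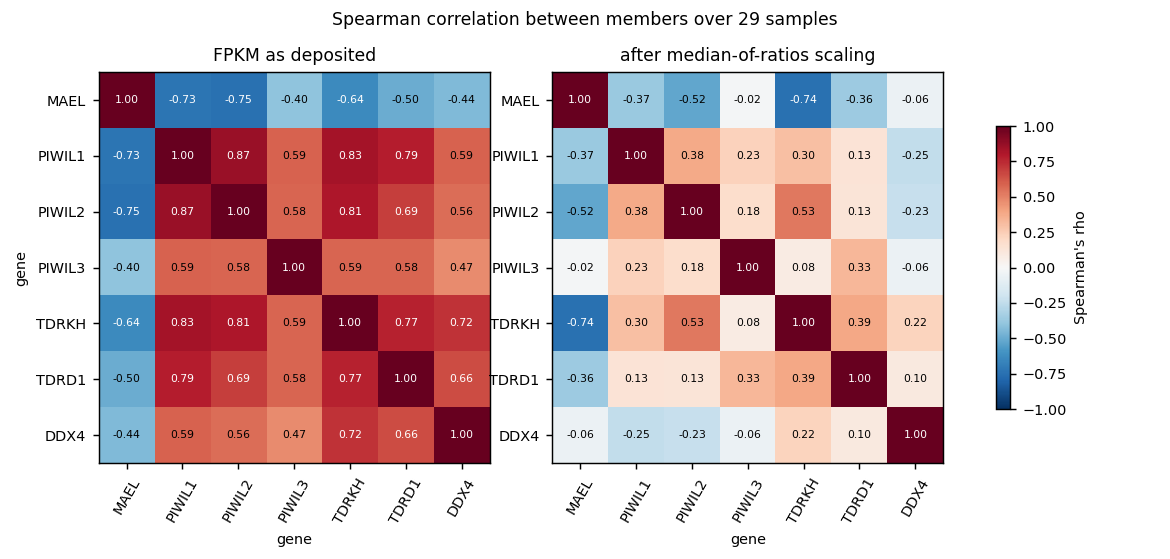
Spearman's rho between the 7 tested members over 29 samples, from FPKM as deposited (left) and after median-of-ratios scaling (right), on a colour scale from -1 (blue) to 1 (red). Pairs without MAEL are all above 0.47 on the left and at or below 0.53 on the right. Pairs with MAEL run from -0.748 to -0.403 on the left and from -0.744 to -0.0192 on the right. MAEL with TDRKH has a rho of -0.64 and -0.74.

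The rest of the piRNA pathway also held a few abundant transcripts above many low ones. Of 30 other piRNA factors, 27 had a row (28 rows, of which 20 averaged above 0.5 FPKM). GTSF1 (ENSCHIG00000012215), a small zinc finger protein that helps PIWI proteins cut their targets, averaged 970 ± 376 FPKM (39.7 to 1482), and a second row of that symbol was listed at 0 in every sample. HSP90AA1, a chaperone used in loading small RNAs, averaged 81.1 ± 32.8 FPKM. PNLDC1, the enzyme that trims piRNA ends, averaged 24.4 ± 21.2, ASZ1, a germ granule protein at mitochondria, 23.5 ± 14.1, FKBP6, a co-chaperone of the pathway, 18.0 ± 17.5, and DDX39A, an RNA helicase, 13.3 ± 12.5 FPKM. PLD6, the mitochondrial nuclease that starts piRNA processing, averaged 0.00977 FPKM and HENMT1, which methylates piRNA ends, 0.487.

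No other piRNA factor was called for fertility at an adjusted p under 0.05 in limma. At an unadjusted p under 0.05, 0 of 20 tested factors were called in large, 2 of 20 in medium and 3 of 19 in small follicles, and 3 of 21 over all stages, against 4.14%, 8.67%, 4.41% and 9.99% of all genes. HSP90AA1 was among them in medium follicles (log2 difference -0.74, SE 0.321), in small follicles (-0.73, SE 0.319) and over all stages (-0.64, SE 0.185, unadjusted p = 0.00171, adjusted p = 0.423). TDRD10 was at 0.92 in medium follicles, DDX25 at -1.08 and MYBL1 at -0.56 in small follicles, and TDRD6 at -0.36 and MYBL1 at -0.32 over all stages. The sample number called 14 of 21 factors, among them EXD1 (adjusted p = 0.000175), FKBP6 (0.000448) and PNLDC1 (0.000534), against the same 50.5% of all genes. After median-of-ratios scaling it called 8 of 21, among them the same 3 genes, against 45.5% of all genes. Follicle size called 0 of 21 at either threshold, against 0% of all genes adjusted and 1.66% unadjusted. The interaction called 0 of 21 adjusted and 1 of 21, TDRD10, unadjusted, against 0% and 7.89% of all genes.

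The small interfering and microRNA machinery, a related pathway that silences transcripts through Argonaute proteins, was also measured. Its 6 highest members were MOV10, a helicase related to MOV10L1, at 18.5 ± 6.43 FPKM, TARBP2, a partner of Dicer, at 15.5 ± 15.3, the nuclear processing proteins DROSHA and DGCR8 at 6.67 ± 2.72 and 5.70 ± 5.89, the nuclease DICER1 at 4.88 ± 2.06 and the Argonaute partner TNRC6A at 4.77 ± 2.75. None was called for fertility at an adjusted p under 0.05 in limma. At an unadjusted p under 0.05 the counts were 3 of 9 tested in large, 2 of 10 in medium and 0 of 10 in small follicles, and 1 of 12 over all stages, against 4.14%, 8.67%, 4.41% and 9.99% of all genes. These were TNRC6B (log2 difference -0.80), PRKRA (-1.11) and DGCR8 (0.96) in large follicles, XPO5 (-0.43) and MOV10 (-0.80) in medium follicles, and AGO2 (-0.37, SE 0.113, adjusted p = 0.423) over all stages. The sample number called 2 of 12, TARBP2 (adjusted p = 5.50e-05) and DGCR8 (adjusted p = 0.0399), against 50.5% of all genes, and it called 3 of 12 after median-of-ratios scaling and 5 of 12 after quantile normalization, against 45.5% and 45.1%.

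Genes for proteins that store RNA in oocytes and for those that silence transposons at chromatin were tested as well. In limma, 0 of 10 tested germ plasm and oocyte RNP genes and 0 of 13 tested chromatin silencing genes were called at an adjusted p under 0.05 over all stages, with 0 and 3 at an unadjusted p under 0.05, against 9.99% of all genes. The 3 were the DNA methyltransferases DNMT1 (log2 difference -0.56) and DNMT3A (-0.54) and the heterochromatin protein MPHOSPH8 (-0.49). Within a follicle size no gene of either list passed the adjusted threshold. At an unadjusted p under 0.05, 1 of 10 germ plasm and 2 of 12 chromatin genes were called in medium follicles, against 8.67% of all genes. The counts were 0 of 9 and 1 of 12 in small follicles, against 4.41%, and 0 of 9 and 0 of 12 in large, against 4.14%. Those in medium follicles were DAZL, a germ cell RNA-binding protein (log2 difference -0.93, SE 0.272, adjusted p = 0.254), DNMT3A (-0.90) and MORC1 (0.63). The gene in small follicles was MPHOSPH8 (-0.79). The sample number called 5 of 10 and 8 of 13, against 50.5% of all genes.

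For 6 of the 7 tested members, all but TDRD1, the genes whose levels followed them most closely over the 29 samples were sought among 7808 genes with a symbol of their own. PIWIL1 was nearest to CNN3 (rho 0.935), CHRNA3 (0.927) and HPF1 (0.925), and PIWIL2 to FKBP6 (0.912), POLR1C (0.911) and CCNB2 (0.901). PIWIL3 was nearest to TMEM232 (0.818), PRIMPOL (0.813) and TIGD2 (0.806), and DDX4 to DYM (0.913), KCTD3 (0.908) and the zona pellucida gene ZP2 (0.900). TDRKH was nearest to LEO1 (0.917), COPB2 (0.913) and HSF2BP (0.904). For MAEL the nearest were SGCE (0.853), SMIM18 (0.813) and KRTCAP2 (0.793).

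The neighbours differed in how crowded they were and in how they bore rescaling. Over a rho of 0.8 there were 460 genes for PIWIL1, 503 for PIWIL2, 485 for TDRKH and 109 for DDX4, but 5 for PIWIL3 and 2 for MAEL. After median-of-ratios scaling rho was lower for the named neighbours of PIWIL1, PIWIL2, PIWIL3, DDX4 and TDRKH, for example to 0.582 for PIWIL1 with CNN3 and to 0.713 for PIWIL2 with FKBP6. It was higher for MAEL, at 0.922 with SGCE, 0.869 with SMIM18 and 0.879 with KRTCAP2.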

How the data were processed

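Expression was measured by sequencing mRNA of goat oocytes enriched on oligo(dT) beads. According to the methods of the study, the authors kept uniquely mapped reads with fewer than 5 mismatches, removed duplicates and computed FPKM with Cufflinks 2.2.1 against an Ensembl annotation; the aligner and the genome build are not given in the sources used here. The deposited values are FPKM per gene and sample. They are decimals, so whole reads could not be recovered and depth is unknown; no interval for counting error is given. Samples were grouped by their labels. 1 further column of values, named for HSO sample 2, matches no sample in the labels and was not used.

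Genes above 0.5 FPKM in at least 4 samples of a fit were tested on log2(FPKM + 1), so differences of low genes are understated, with limma 3.58.1 (moderated tests with trend, R 4.3.3) and Benjamini-Hochberg adjustment over all genes. Permutations, correlations and figures used Python 3.11.15. Fits used each pair of groups for fertility within a follicle size, and all 29 samples otherwise. Alternatives were other pseudocounts, filters, scalings, weights, an exact Wilcoxon test, a replicate block and each sample left out. Tested on simulated FPKM in which 200 genes carried a log2 change of 2, the procedure recovered 67.5% of them for HLO against LLO, 57.5% for HMO against LMO, 52% for HSO against LSO and 95.5% over all stages. It recovered 91.5% for follicle size, 33.5% for the interaction and 78% for the sample number. The simulated samples were drawn independently, without differences shared by a sample number. The comparison of neighbouring levels and the grouping of numbers 1 and 5 against 2 and 3 were chosen after seeing the data. So were the overlap of HSO with HMO and the split of number 4 by fertility.

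Every tested member is named with its levels in the 6 groups, and PIWIL4, TDRD9 and MOV10L1 with their lowest and highest group means. Fold changes are given for unadjusted p under 0.05, and PIWIL3 in small follicles is an exception. Of the other piRNA factors and the small RNA machinery, the 6 highest by mean and those under that p are named, and PLD6 and HENMT1 were added after their values were seen, as were the named chromatin silencing and germ plasm genes. Neighbours are the 3 genes with a unique symbol and the highest rho. The members and lists were chosen with earlier results of these data known. Gene sequences and coordinates are not used here.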

Additional observations from a re-analysis of the deposited data

Results flagged for a closer look

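Within groups of 4 or 5 samples, 6 of 60 gene and group combinations had 1 sample far from the others by Dixon's criterion, where chance alone picks out about 1 in 20. MAEL reached 487 FPKM in LLO sample 2, beside 277 for the next LLO sample. DDX4 was 3.44 FPKM in HLO sample 1 (next 1.88) and 5.40 in LLO sample 4 (next 2.29). TDRKH was 14.5 FPKM in HSO sample 5, beside 2.41 for the next. PIWIL4 was 0.0670 FPKM in LMO sample 3 (next 0.0235) and 0.0890 in LSO sample 4 (next 0.0145), both under the level used for testing. Each was the highest of its group.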

How the results depend on the processing

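The count of members called for fertility, follicle size or their interaction at an adjusted p under 0.05 was 0 under all alternatives run but 1, also where a filter changed how many members were tested. With limma array weights, which down-weight variable samples, 2 of 7 members were called in HMO against LMO (PIWIL2 at -0.65 on the log2 scale, adjusted p = 0.0320, and TDRKH at -1.07, adjusted p = 0.0402), when 12.1% of all genes were called. With the same weights 1 of 7, PIWIL2 (-0.49, adjusted p = 0.0387), was called over all stages, when 7.13% of all genes were called. The cause was not tested. For the sample number, 5 of 7 calls became 2 after median-of-ratios scaling and 2 after quantile normalization; the other alternatives gave 4 to 7 and leaving out 1 sample 4 to 6. TDRD1 passed 0.05 narrowly, at adjusted p-values of 0.00579 to 0.0581 with 1 sample left out, and lost its call without HLO sample 2 or 5, LLO sample 3, LMO sample 2, 3 or 5, HSO sample 3, or LSO sample 2 or 3. The count at an unadjusted p under 0.05, 0 of 7 as reported, became 1 to 4 under 3 settings in HMO against LMO, 1 under 3 in HSO against LSO, 1 to 3 under 3 over all stages, 1 to 2 under 4 for follicle size and 1 under 4 for the interaction. With a sample left out it became 1 without LMO sample 3 in medium follicles, without LSO sample 1 in small follicles and, for follicle size, without HLO 1, HMO 5, HSO 1 or 3, LLO 4 or LSO 2, 3 or 5. Mean levels of the members after median-of-ratios scaling stayed within their spread.

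Sample numbers were tested as a pairing. Deviations of high and low fertility samples with the same number correlated between -0.481 and 0.709, over 0.1 in 10 of 14 pairs and below 0 for number 4 at all 3 follicle sizes. Since not every pair was over 0.1 and the labels state no pairing, the number was not taken as a pairing in the report. With the replicate block 0 of 7 members were called for fertility at an adjusted p under 0.05. Each sample's deviations from its group mean were also correlated with those of all samples of the other groups. For 21 of 29 samples the highest correlation was with a sample of their own number.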
